A study of Danio rerio with 80 samples.

Results

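The transcript levels of 4 developmental transcription factor genes, foxf2a (ENSDARG00000017195), zic2 (ENSDARG00000015554, which the gene name table calls ZIC2), etv4 (ENSDARG00000018303) and meox1 (ENSDARG00000007891), were followed in zebrafish embryos exposed to 3 related polycyclic aromatic hydrocarbons. They are 4 of 32520 IDs that were counted, and all 4 passed the filter on low counts at both sampling times. The genes were chosen by their Ensembl IDs because their counts responded to the lower concentrations of 8-methylbenzo[a]pyrene (8-MBaP), that is, to 0.133 and 1.33 µM set against the control. The values at those concentrations are therefore given as a description without a test, and no numeric threshold divided the 4 genes from the rest.

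The libraries came from wild-type 5D zebrafish exposed in water with DMSO as the carrier. Exposure was to 8-MBaP, to its isomer 6-MBaP or to the parent compound benzo[a]pyrene (BaP), at 0.133, 1.33 or 13.3 µM, or to DMSO alone as the control, and embryos were collected at 48 or 72 h post fertilization (hpf). The methylated compounds are BaP with a methyl group and differ from each other in its position. Each of the 20 groups holds 4 libraries (A to D), and each library is a pool of 6 whole embryos. Each chemical and concentration had a plate of its own and the controls another, so that plate and exposure cannot be told apart, and nothing in the labels says that the pools of a group came from separate spawns, so p-values measure the spread between pools of a plate. In whole-embryo RNA, fewer cells of a type and less RNA per cell cannot be told apart.

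Library totals lay between 4838752 and 8779891 counts (median 6467821). cyp1a, a monooxygenase gene induced through the aryl hydrocarbon receptor, served as the check of exposure. Levels are given in CPM, counts scaled by the library total and a TMM normalization factor. At 48 hpf cyp1a lay between 791 and 983 CPM in the 13.3 µM 8-MBaP libraries. It lay between 20.4 and 28.8 CPM with 13.3 µM 6-MBaP and between 242 and 368 CPM with 13.3 µM BaP, against 4.36 to 5.81 CPM in the controls. At 72 hpf the corresponding ranges were 1140 to 1370, 26.2 to 31.8 and 258 to 341 CPM, against 3.92 to 6.25 CPM in the controls. Of 11 IDs for tissue markers of a whole embryo (muscle, neurons, epidermis, red blood cells, lens, heart, yolk syncytial layer and neural crest), none was at 0 in any library. Their summed level was 22300 to 24800 CPM with 13.3 µM 8-MBaP against 26200 to 28600 CPM in controls at 48 hpf, and 17700 to 19800 against 23200 to 26600 CPM at 72 hpf. The markers called lower with 13.3 µM 8-MBaP at 48 hpf were krt4 (log2 fold change −0.67), krt5 (−0.38) and crygm2d1 (−0.49), and those at 72 hpf were krt4 (−1.33) and crygm2d1 (−0.50). With 13.3 µM BaP the sums were 24600 to 26100 CPM at 48 hpf and 18100 to 20300 CPM at 72 hpf. With 13.3 µM 6-MBaP they were 25600 to 29200 and 22100 to 22600 CPM. krt4 was also called lower with 13.3 µM BaP at 72 hpf (−0.71). So was crygm2d1 with 13.3 µM 6-MBaP at 48 hpf (−0.47) and 1.33 µM BaP at 72 hpf (−0.44). The part of these differences in the results on foxf2a, zic2, etv4 and meox1 was not tested.

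The 4 genes act in different embryonic tissues. foxf2a encodes a forkhead factor of mesenchyme, and in zebrafish and mouse Foxf2 is needed by the mural cells that wrap small vessels of the brain. Zic2 is a zinc finger factor of the dorsal neural tube, and mutations of the human gene cause holoprosencephaly. etv4, also called pea3, encodes an ETS factor that is switched on by fibroblast growth factor (FGF) signalling, and meox1 encodes a homeodomain factor of the somites, the segmented blocks that give rise to trunk muscle and skeleton.

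None of the genes was abundant. foxf2a had 23 to 171 counts per library (median 64), etv4 42 to 141 (median 94), meox1 69 to 262 (median 138) and zic2 106 to 228 (median 160.5). In CPM, the range over all 80 libraries was 4.30 to 24.9 for foxf2a, 8.34 to 22.0 for etv4, 12.85 to 37.5 for meox1 and 16.5 to 35.6 for zic2. Within each gene and time, all 9 of 9 pairs of neighbouring groups in the order of mean CPM overlapped.

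**Figure D1:**
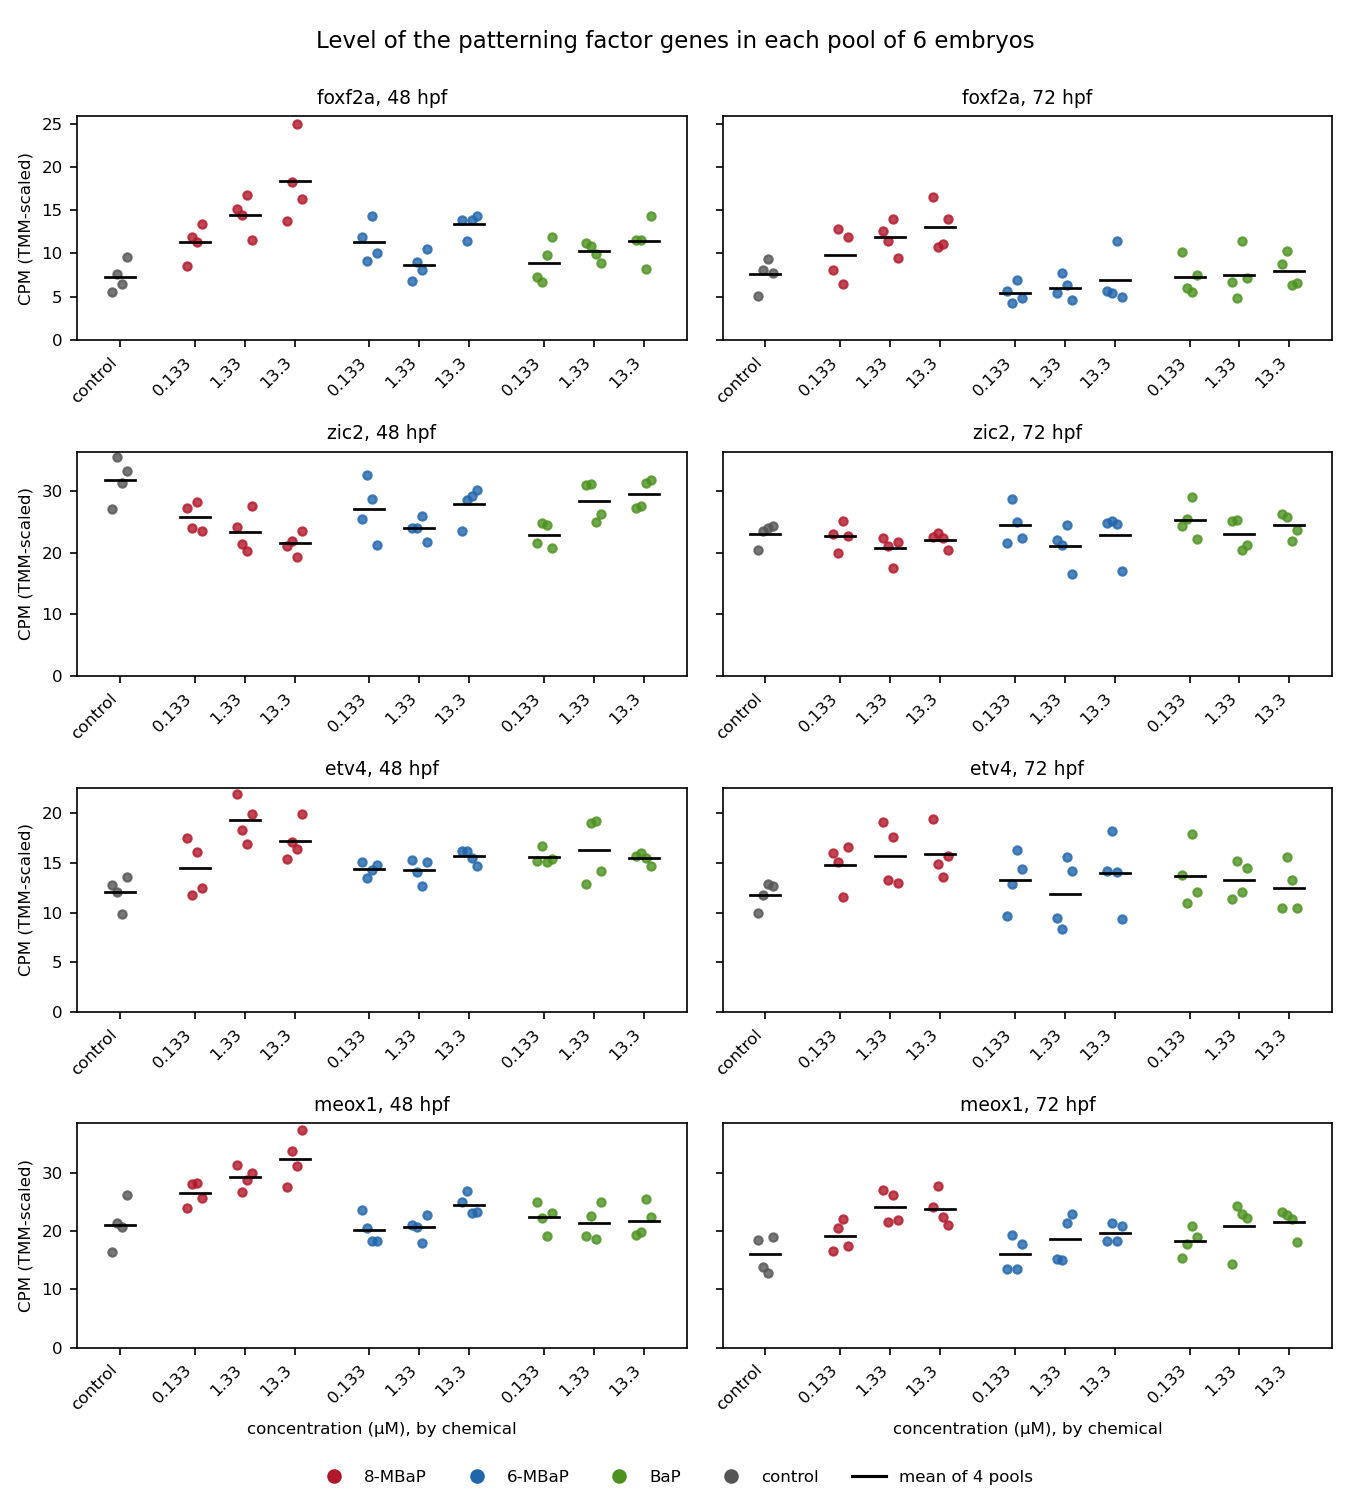
CPM of foxf2a, zic2, etv4 and meox1 (rows) in each library at 48 hpf (left) and 72 hpf (right), by chemical and concentration; points are the 4 pools of 6 embryos in a group and horizontal bars their mean. At 48 hpf foxf2a and meox1 stood highest in 13.3 µM 8-MBaP (means 18.3 and 32.5 CPM) and zic2 lowest (21.5 CPM), against control means of 7.32, 21.2 and 31.8 CPM.

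foxf2a was the gene of the 4 with the largest change after 8-MBaP at 48 hpf. At 0.133 µM 8-MBaP its libraries read 8.59, 11.91, 11.33 and 13.43 CPM, and at 1.33 µM 15.1, 14.39, 16.74 and 11.58 CPM. At 13.3 µM 8-MBaP they read 13.79, 18.25, 24.9 and 16.32 CPM, against 5.51, 7.62, 6.51 and 9.63 CPM in the controls. Every library at 1.33 and 13.3 µM lay above every control, while those at 0.133 µM overlapped them. The log2 differences from control at 0.133 and 1.33 µM, which chose the gene, were 0.62 and 0.97. At 13.3 µM foxf2a rose by 1.32 ± 0.20 on the log2 scale (SE; 2.5-fold, 18.3 ± 4.75 against 7.32 ± 1.76 CPM, SD, n = 4 each, adjusted p = 6.3e-06). It was one of the genes making up the 1.54% of the 17794 tested that were called in this comparison at an adjusted p of 0.05 or under. This test, the others against control and the changes of those effects with time use the same control pools as the values that chose the genes, so they are not independent of that choice.

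At 72 hpf foxf2a had 16.51, 10.78, 11.15 and 14.02 CPM with 13.3 µM 8-MBaP, against 5.07, 8.05, 9.40 and 7.79 CPM in the controls. The libraries again did not overlap, but the difference of 0.79 ± 0.25 (13.1 ± 2.69 against 7.58 ± 1.82 CPM) missed the threshold (adjusted p = 0.075), where 2.47% of all 18423 genes tested at 72 hpf were called. In fits without a filter on low counts, or of only the groups compared, it passed (adjusted p = 0.027 and 0.026), as it did by DESeq2 (adjusted p = 0.049). The lower concentrations gave 0.36 at 0.133 µM and 0.65 at 1.33 µM. In the controls themselves the log2 difference of 72 from 48 hpf was 0.05 (95% interval −0.42 to 0.53). The controls helped to choose the genes, so their differences between the times are given without a test.

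zic2 was the only gene of the 4 that was lower after 8-MBaP. At 48 hpf its 13.3 µM 8-MBaP libraries read 21.18, 21.90, 19.37 and 23.62 CPM, against 27.19, 35.60, 31.32 and 33.25 CPM in the controls, and no library of one group reached the other. It fell by 0.57 on the log2 scale (SE 0.13, 21.5 ± 1.76 against 31.8 ± 3.56 CPM, adjusted p = 0.0064). At 0.133 µM the libraries held 27.33, 24.09, 28.26 and 23.62 CPM and at 1.33 µM 24.13, 21.51, 20.22 and 27.55 CPM, log2 differences of −0.30 and −0.45 from control. Both of those groups overlapped the controls, through control library A.

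zic2 had no such difference at 72 hpf, when 8-MBaP at 13.3 µM gave 22.50, 23.30, 22.42 and 20.42 CPM against 20.45, 23.48, 23.97 and 24.40 CPM in the controls (log2 fold change −0.05 ± 0.14, adjusted p = 0.93). The lower concentrations gave −0.03 at 0.133 µM and −0.16 at 1.33 µM, both overlapping the controls. The zic2 level of the controls was 23.1 CPM at 72 hpf and 31.8 CPM at 48 hpf, a log2 difference of −0.46, and every 72 hpf control lay below every 48 hpf control. The 48 hpf controls are the pools against which zic2 was chosen as low. The 8-MBaP libraries were near 22 CPM at both times, 22.2 ± 1.23 CPM at 72 hpf and 21.5 ± 1.76 CPM at 48 hpf. The change in effect with time was 0.51 (95% interval 0.15 to 0.86) and was not called (adjusted p = 0.51, where 0.0989% of genes were called). It rests on the same 48 hpf controls.

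etv4 had a mean above control in all 9 exposures at 48 hpf, but none of its tested differences was called in the edgeR fit used throughout. With 13.3 µM 8-MBaP it read 15.43, 17.14, 16.45 and 19.90 CPM, against 12.74, 12.09, 9.85 and 13.63 CPM in the controls. The groups did not overlap, yet the log2 difference of 0.52 ± 0.15 (17.2 ± 1.91 against 12.1 ± 1.61 CPM) was just outside the threshold (adjusted p = 0.069). DESeq2 called it (adjusted p = 0.035), as did edgeR with the filterByExpr filter (adjusted p = 0.050). The largest etv4 difference was at 1.33 µM rather than 13.3 µM: 22.0, 18.33, 16.90 and 19.92 CPM, or 0.67 above control, while 0.133 µM 8-MBaP gave 17.57, 11.78, 16.07 and 12.44 CPM, or 0.26 above control. At 72 hpf the 13.3 µM 8-MBaP libraries held 19.43, 14.90, 13.62 and 15.70 CPM against 9.97, 11.74, 12.85 and 12.65 CPM in the controls, again without overlap and again not called (0.43 ± 0.19, adjusted p = 0.33). The lower concentrations gave 0.32 at 0.133 µM, overlapping the controls, and 0.41 at 1.33 µM, above all of them.

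meox1 was higher after 8-MBaP at both times. At 48 hpf the 13.3 µM libraries read 27.58, 33.80, 31.16 and 37.51 CPM, against 16.35, 21.36, 20.76 and 26.16 CPM in the controls. The lowest exposed library was above the highest control, and meox1 rose by 0.62 ± 0.13 on the log2 scale (32.5 ± 4.19 against 21.2 ± 4.01 CPM, adjusted p = 0.0030). At 0.133 µM it held 24.08, 28.11, 28.26 and 25.74 CPM and at 1.33 µM 31.35, 26.81, 28.83 and 30.09 CPM, which is 0.33 and 0.46 above control. The 0.133 µM libraries overlapped the controls and the 1.33 µM libraries did not. At 72 hpf the 13.3 µM 8-MBaP libraries read 24.12, 27.74, 22.54 and 21.03 CPM, against 18.42, 13.79, 12.85 and 19.03 CPM in the controls.

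This 72 hpf difference in meox1 was 0.58 ± 0.16 (23.9 ± 2.88 against 16.0 ± 3.16 CPM, adjusted p = 0.032), with no overlap, but it rested on single libraries: without 8-MBaP library A or B the adjusted p was 0.067 or 0.17, and without control library B or C it was 0.15 or 0.17. At 0.133 µM 8-MBaP the libraries of that time held 16.54, 20.52, 22.10 and 17.44 CPM, which overlapped the controls, and were 0.25 above them on the log2 scale (95% interval −0.07 to 0.57). At 1.33 µM they held 27.18, 21.66, 26.23 and 21.86 CPM, all above the controls, and 0.59 on the log2 scale. The control level of meox1 was 16.0 CPM at 72 hpf and 21.2 CPM at 48 hpf, with overlapping libraries.

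**Figure D2:**
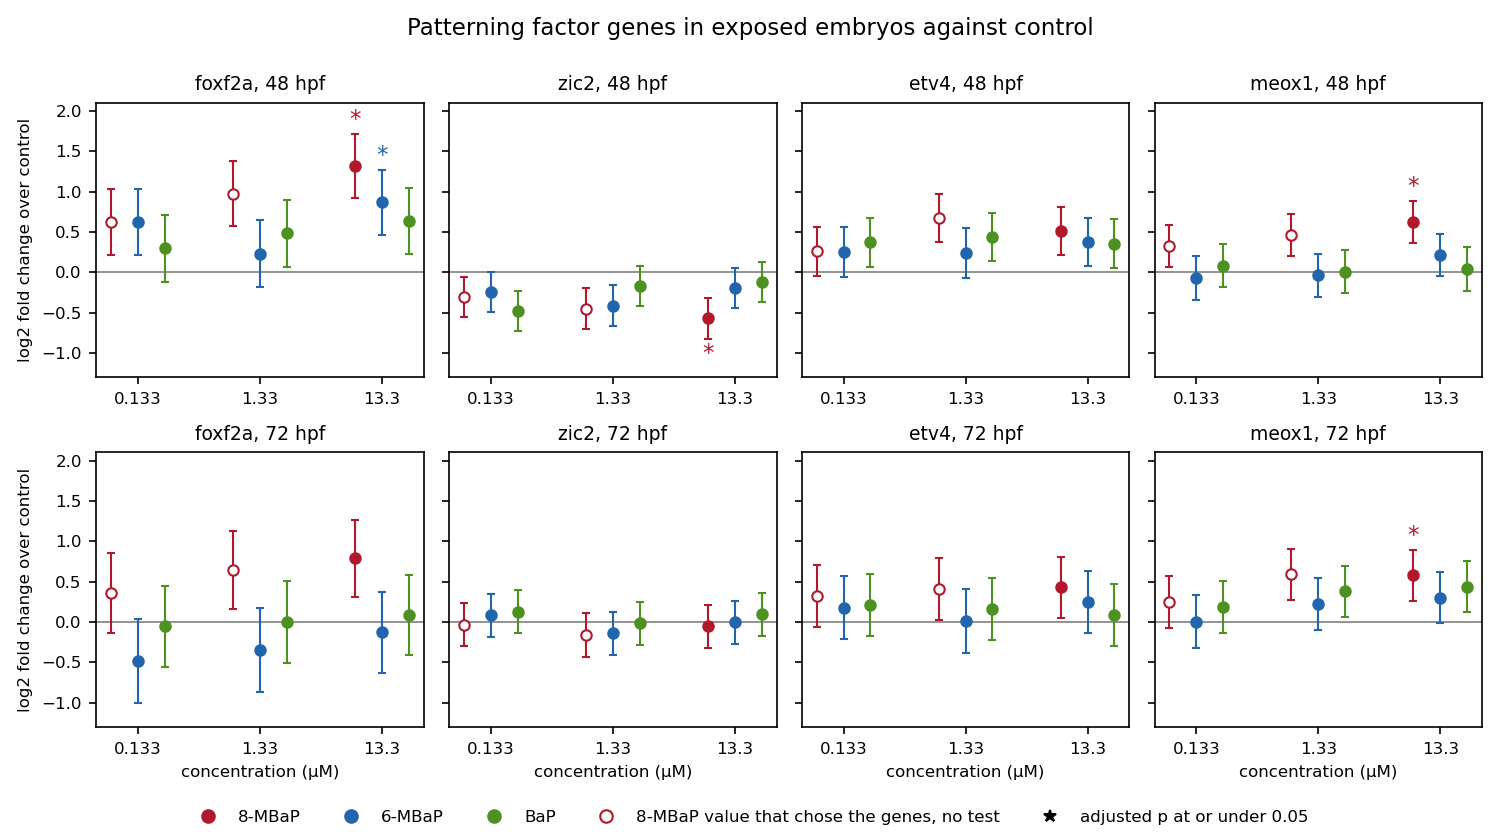
Log2 fold change against the control of the same time (vertical axis) for each gene (columns) at 48 hpf (top) and 72 hpf (bottom), by concentration in µM (horizontal axis) and chemical; bars are 95% intervals, open symbols are the 8-MBaP concentrations that chose the genes, and stars mark values called at an adjusted p of 0.05 or under. With 13.3 µM 8-MBaP, foxf2a was at 1.32, meox1 at 0.62 and zic2 at −0.57 at 48 hpf, and meox1 at 0.58 was called at 72 hpf.

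Of the 4 genes, which were chosen for a response to 8-MBaP against the same controls, 3 were called with 13.3 µM 8-MBaP at 48 hpf (1.54% of all genes) and 1 at 72 hpf (2.47%). Of the 12 comparisons of BaP or 6-MBaP with control, only 6-MBaP at 13.3 µM and 48 hpf gave a call, for foxf2a, where 0.253% of all genes were called. foxf2a then read 13.82, 11.49, 13.83 and 14.36 CPM with 6-MBaP, against 5.51, 7.62, 6.51 and 9.63 CPM in the controls, a log2 difference of 0.87 ± 0.21 (adjusted p = 0.039). That call was lost without any 1 of the 4 6-MBaP libraries (adjusted p between 0.052 and 0.12) and without control library A, B or C (0.21, 0.078 and 0.15).

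With 13.3 µM BaP at 48 hpf foxf2a held 11.57, 11.57, 8.24 and 14.35 CPM, 0.64 ± 0.21 above control with library C inside the control range (adjusted p = 0.27). The 3 BaP comparisons at 48 hpf called 0.0112%, 0.0843% and 0.343% of all genes in order of concentration, and none of the 4 genes. The lower 6-MBaP concentrations at 48 hpf called 0% of genes by edgeR (0 at 0.133 µM and 0 at 1.33 µM; 1245 and 1136 genes had an unadjusted p under 0.05, and DESeq2 called 14 and 0). At 72 hpf 6-MBaP called 0.00543%, 0.00543% and 0.038% of genes and BaP 0.0109%, 0.13% and 0.809%, again with none of the 4 among them. meox1 at 13.3 µM BaP came nearest at that time, with 23.28, 22.80, 22.06 and 18.13 CPM against 18.42, 13.79, 12.85 and 19.03 CPM in controls (0.44 ± 0.16, adjusted p = 0.26).

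zic2 was separated from the 48 hpf controls at 0.133 µM BaP, with 21.52, 24.77, 24.45 and 20.75 CPM (−0.48 ± 0.13, adjusted p = 0.46), and at 1.33 µM 6-MBaP, with 24.05, 24.07, 26.04 and 21.70 CPM (−0.41 ± 0.13, adjusted p = 0.57). Neither was called, and neither chemical was as low at 13.3 µM, where 6-MBaP gave 23.49, 28.50, 29.19 and 30.25 CPM and BaP 27.27, 27.55, 31.33 and 31.80 CPM. At 48 hpf etv4 lay above all 4 controls at 13.3 µM 6-MBaP and at 0.133 and 13.3 µM BaP, and none was called (log2 differences of 0.38, 0.37 and 0.36, adjusted p of 0.39, 0.95 and 0.50). These separations were picked from all comparisons of BaP or 6-MBaP with control in the 4 genes. The only other separation was that of foxf2a at 13.3 µM 6-MBaP and 48 hpf, given above. At the later sampling time the libraries overlapped in every such comparison. All these separations share the same 4 control pools, and how often all genes separate in this way was not counted.

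By sign alone, foxf2a and etv4 were above control in 9 of 9 exposures at 48 hpf and zic2 below it in 9 of 9, while meox1 was above it in 7. At 72 hpf etv4 and meox1 were above control in 9 of 9, foxf2a in 4 and zic2 in 3. All 9 exposures of a time share the same 4 control pools, so these counts repeat the position of 1 control group.

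The differences between chemicals are taken without the control libraries. The controls and the lower 8-MBaP concentrations still entered the same fit, through its scaling and its estimate of the spread. 10 pairs were tested: 8-MBaP with each of the other two at 13.3 µM, and 6-MBaP with BaP at every concentration, at each time. p-values are given adjusted over all genes of a comparison and, where stated, jointly over all genes and the 10 pairs (181085 tests, of which 700 were called).

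meox1 separated 8-MBaP from BaP at 48 hpf. With 13.3 µM of each, the 8-MBaP libraries read 27.58, 33.80, 31.16 and 37.51 CPM and the BaP libraries 19.34, 19.83, 25.52 and 22.50 CPM, with no overlap. The difference was 0.58 ± 0.13 (95% interval 0.32 to 0.84, adjusted p = 0.012, jointly 0.018), where 0.815% of all genes were called. It missed the threshold without 8-MBaP library D (0.50, adjusted p = 0.092) and without BaP library B (0.54, adjusted p = 0.068). The other members were not called in that pair. foxf2a differed by 0.68 (interval 0.31 to 1.06, adjusted p = 0.070), zic2 by −0.45 (−0.71 to −0.20, adjusted p = 0.085, every 8-MBaP library below every BaP library), and etv4 by 0.16 (−0.13 to 0.45, adjusted p = 0.76). For foxf2a the adjusted p was 0.022 by DESeq2, 0.044 without the low-count filter, 0.037 without 8-MBaP library A and 0.049 without BaP library D; for zic2 it was 0.023 by DESeq2.

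foxf2a separated 8-MBaP from 6-MBaP at 72 hpf within that comparison only. It had 16.51, 10.78, 11.15 and 14.02 CPM with 13.3 µM 8-MBaP, against 5.72, 5.45, 11.48 and 4.98 CPM with 13.3 µM 6-MBaP, where library C lay inside the 8-MBaP range. The difference was 0.91 ± 0.25 (interval 0.43 to 1.40, adjusted p = 0.038), where 1.37% of all genes were called, and it was not called jointly over the 10 pairs (0.090). Leaving out 8-MBaP library A or D, or 6-MBaP library A, B or D, gave adjusted p between 0.11 and 0.18, and leaving out 6-MBaP library C gave 1.28 with an adjusted p of 0.0018. At 48 hpf the same pair gave 0.46 for foxf2a (interval 0.09 to 0.82, adjusted p = 0.43), and no member was called among the 0.731% of genes that were. meox1 then differed by 0.40 (adjusted p = 0.18) with all 4 8-MBaP libraries above the 6-MBaP libraries of 24.96, 26.97, 23.18 and 23.32 CPM. zic2 differed by −0.37 (adjusted p = 0.27) and etv4 by 0.14 (adjusted p = 0.87).

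At 72 hpf none of the 4 genes was called between 8-MBaP and BaP, where 0.814% of genes were. foxf2a differed by 0.70 (interval 0.22 to 1.18, adjusted p = 0.23), etv4 by 0.34 (adjusted p = 0.62), zic2 by −0.15 (adjusted p = 0.82) and meox1 by 0.14 (adjusted p = 0.87). In the 8-MBaP and 6-MBaP pair of that time zic2 differed by −0.05, etv4 by 0.18 and meox1 by 0.28 (adjusted p of 0.96, 0.86 and 0.61).

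The methyl group of 6-MBaP came with no called difference from BaP in any of the 4 genes, in 6 pairs. Those pairs called 0.0169%, 0.0337% and 0.197% of all genes at 48 hpf and 0.174%, 0.0543% and 0.114% at 72 hpf. The differences ran from −0.43 to 0.32 for foxf2a, −0.24 to 0.24 for zic2, −0.20 to 0.16 for etv4 and −0.18 to 0.18 for meox1. Their 95% intervals reached −0.96 and 0.72 for foxf2a, −0.50 and 0.49 for zic2, −0.54 and 0.54 for etv4, and −0.51 and 0.44 for meox1, so differences of up to those sizes are not excluded.

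**Figure D3:**
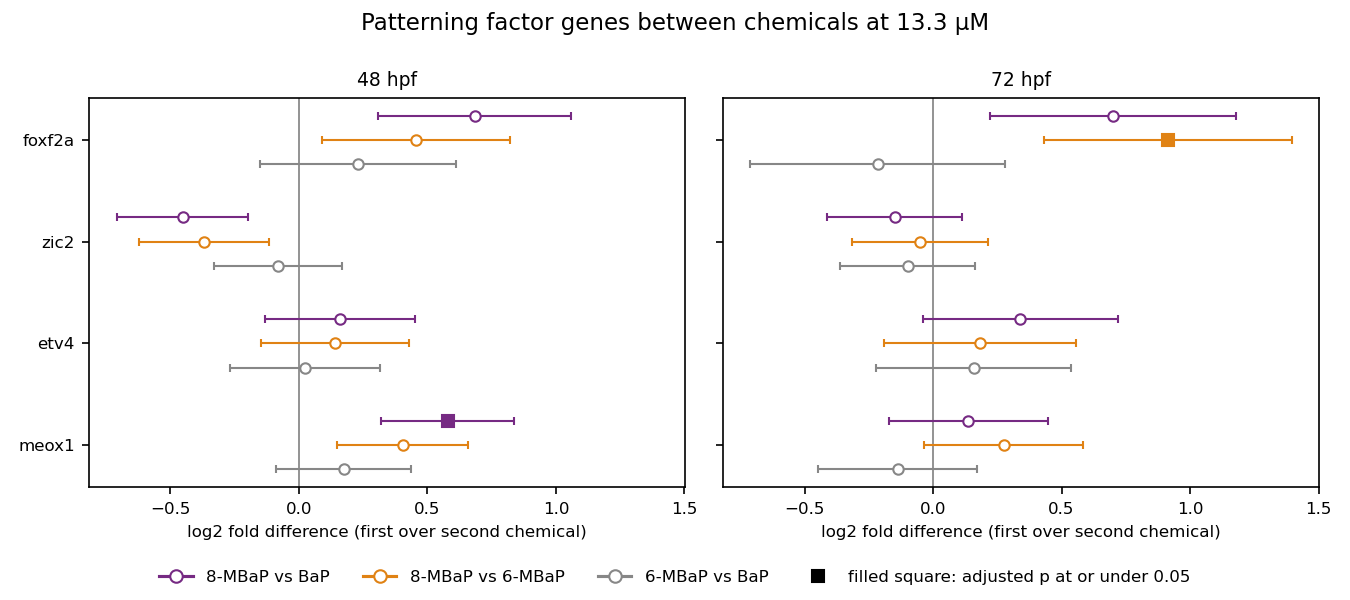
Log2 difference between chemicals at 13.3 µM (horizontal axis) for each gene (vertical axis) at 48 hpf (left) and 72 hpf (right); points are the fitted differences, the chemical named first over the second, with filled squares for those called within the comparison and open circles for the rest, and bars 95% intervals. meox1 stood at 0.58 for 8-MBaP over BaP at 48 hpf and foxf2a at 0.91 for 8-MBaP over 6-MBaP at 72 hpf, while the intervals of 6-MBaP over BaP all included 0.

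The size of the 13.3 µM effect was compared between the times for each chemical, and no change was called in any of the 4 genes. The share of all genes called was 0.0989% for 8-MBaP, as above, 0% for 6-MBaP (0 by edgeR and 0 by DESeq2, 1029 at an unadjusted p under 0.05) and 0.0104% for BaP. For 6-MBaP the foxf2a effect was lower at 72 than at 48 hpf by 1.00 (interval −1.65 to −0.35, unadjusted p = 0.0035, adjusted p = 0.91). For 8-MBaP the change in foxf2a was −0.54 (interval −1.18 to 0.09), in etv4 −0.09 (−0.57 to 0.39) and in meox1 −0.05 (−0.45 to 0.36).

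Genes that work with or beside the 4 were read from lists, without a set test. The lists were chosen with earlier results of these data known, so counts from them are a description. Across all genes the median log2 difference between 13.3 µM 8-MBaP and control was 0.0016 at 48 hpf and −0.0044 at 72 hpf. Of all genes, 1.54% and 2.47% were called at these times. Beside etv4 stand the FGF ligands and receptors (15 IDs tested at 48 hpf) and the FGF targets and feedback inhibitors (14 IDs). At 48 hpf 0 of 15 and 0 of 14 were called by edgeR with 13.3 µM 8-MBaP, with medians of 0.16 and 0.15. The nearest relatives of etv4 gave log2 differences of 0.20 for ETV1, −0.02 for etv5a and 0.19 for etv5b. At 72 hpf, where 2.47% of all genes were called, 1 of the 14 targets rose, SPRY4, a feedback inhibitor of FGF receptor signalling (0.60 ± 0.13, adjusted p = 0.0020), with a list median of 0.15, and 0 of 14 ligands and receptors. Between 8-MBaP and 6-MBaP at 72 hpf, where 1.37% of all genes were called, 1 of the 14 targets differed, IL17RD, another inhibitor of that pathway (1.00 ± 0.23, adjusted p = 0.0068).

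Beside zic2 stand the other Zic genes, the dorsal neural tube genes and the hedgehog pathway. None of the 6 other Zic IDs was called with 13.3 µM 8-MBaP at either time. At 48 hpf ZIC1 was at 0.07, ZIC4 at −0.23, ZIC5 at 0.04 and zic6 at 0.17, against −0.57 for zic2. The name ZIC2 is shared by a second ID, ENSDARG00000037178, which was at 0.32 ± 0.21 (adjusted p = 0.61) at 48 hpf and at −0.72 ± 0.30 (adjusted p = 0.26) at 72 hpf; which zebrafish zic2 copy each ID holds was not determined here. Of 6 dorsal neural tube genes tested, 0 were called at 48 hpf and 1, msx1b, a homeobox gene, rose at 72 hpf (0.72 ± 0.16, adjusted p = 0.0033). Of 12 hedgehog IDs 0 were called at either time, with medians of 0.08 at 48 hpf and 0.03 at 72 hpf.

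Beside meox1 stand somite and dermomyotome genes (14 IDs) and sclerotome genes (8 IDs), the sclerotome being the part of the somite that forms the axial skeleton. At 48 hpf 2 of the 14 rose with 13.3 µM 8-MBaP, among them TCF15, a basic helix-loop-helix factor of the somite (1.01 ± 0.25, adjusted p = 0.017), and the list median was −0.04. TCF15 was also higher with 8-MBaP than with 6-MBaP at 48 hpf (1.04 ± 0.25, adjusted p = 0.016). At 72 hpf 0 of 14 were called, and of the sclerotome genes 0 of 8 at either time.

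Beside foxf2a stand the genes of mural cells and smooth muscle. Genes of the fin bud and fin fold, the skin fold in which the unpaired fins form, were listed as well. Of 10 mural and smooth muscle IDs, 1 fell with 13.3 µM 8-MBaP at 48 hpf, the TAGLN ID ENSDARG00000033466, which encodes an actin-binding protein (−0.38 ± 0.09, adjusted p = 0.017), with a list median of −0.15, and 0 were called at 72 hpf. The name TAGLN is shared by another ID of the list, ENSDARG00000045408, which was not called in that comparison at either time. Over all 80 libraries ENSDARG00000033466 stayed between 62.6 and 106 CPM, while ENSDARG00000045408 ranged from 0.954 to 25.7 CPM. Both entered the list by name, and whether the ID that fell marks smooth muscle in these embryos was not tested. Of 11 fin IDs, 2 rose and 1 fell at each time, where 1.54% of all genes were called at 48 hpf and 2.47% at 72 hpf. The fin list too was chosen with earlier results of these data known, so its counts are a description and no measure of enrichment. SP9, a zinc finger gene of the fin ridge, rose by 0.71 ± 0.16 at 48 hpf (adjusted p = 0.0036) and msx2b by 0.92 ± 0.18 (adjusted p = 7.3e-04), while bhlha9 fell by 1.28 (SE 0.33, adjusted p = 0.021).

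The forkhead genes around foxf2a gave unlike values. By the gene order of the RefSeq table (assembly GRCz12tu), foxf2a lies next to foxq1a on one side, and ftr93 and then foxc1a follow on the other. foxq1a, listed as FOXQ1 (ENSDARG00000030896), had the largest difference of this list, 3.69 ± 0.18 with 13.3 µM 8-MBaP at 48 hpf (adjusted p = 1.4e-26) and 3.21 ± 0.14 at 72 hpf (adjusted p = 3.0e-26). foxc1a, listed as FOXC1, was at −0.12 ± 0.15 at 48 hpf and −0.18 ± 0.16 at 72 hpf, and neither was called. In the duplicated copy of this cluster foxq1b rose by 0.93 ± 0.20 and 0.98 ± 0.15 at 48 and 72 hpf (adjusted p = 0.0031 and 1.0e-05), foxf2b was at 0.19 ± 0.29 and 0.20 ± 0.33, and foxc1b at 0.05 ± 0.12 and −0.10 ± 0.14. The rise of foxq1b was not confined to 8-MBaP. With BaP at 72 hpf it was called at 1.33 µM (0.80, adjusted p = 0.0048) and at 13.3 µM (0.67, adjusted p = 0.014).

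FOXQ1 was also called for 6-MBaP at 13.3 µM (2.00 at 48 hpf and 1.54 at 72 hpf) and for BaP (2.71 and 2.25), and 8-MBaP exceeded BaP in it by 0.98 and 0.95 and 6-MBaP by 1.69 and 1.66, all called. foxf2a itself averaged 18.3 CPM with 8-MBaP, 13.4 with 6-MBaP and 11.4 with BaP at 13.3 µM and 48 hpf, and its difference between 6-MBaP and BaP, 0.23 (interval −0.15 to 0.61), was not called. FOXF1 was at or near 0, with a median of 0.17 CPM over the libraries, and gives no usable value.

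**Figure D4:**
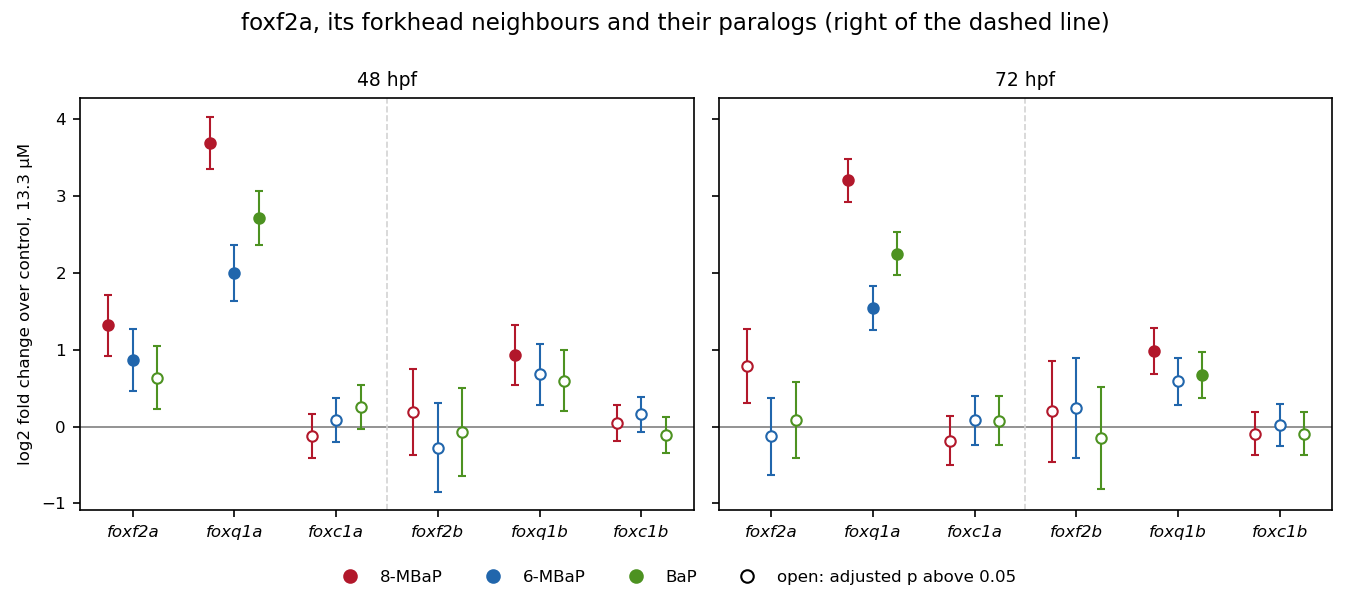
Log2 fold change against control (vertical axis) of foxf2a, its forkhead neighbours and the genes of the duplicated cluster (horizontal axis) with 13.3 µM of each chemical at 48 hpf (left) and 72 hpf (right); bars are 95% intervals, filled symbols are called at an adjusted p of 0.05 or under and open ones are not. FOXQ1 stood at 3.69 with 8-MBaP at 48 hpf against 1.32 for foxf2a and −0.12 for FOXC1.

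meox1 and etv4 are close neighbours themselves, 2 places apart in the RefSeq order with 1 gene between them. Of the 10 annotated genes nearest to etv4 (5 on each side), 5 were matched to 1 ID each and tested at 48 hpf. Of those 5 only meox1 was called, where 1.54% of all genes were, and meox1 was itself chosen for its response to 8-MBaP. sost was at 0.24, dhx8 at −0.01, spata20 at −0.02 and cacna1g at 0.53 (SE 1.13) with 13.3 µM 8-MBaP.

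Likeness of pattern was measured by Pearson's r of group mean log2 CPM over the 20 groups, each group taken as its deviation from the mean of its time, across 11140 genes with at least 20 counts per library on average. The groups of a time share the mean that was subtracted, and the 8-MBaP response that chose the genes is among them, so that r is a description. foxf2a was most like SP9 (r = 0.90), cyp1c2 (0.89), tiparp (0.89), CCN2 (0.88) and ENSDARG00000109310 (0.87). meox1 was most like tiparp (0.92), wu:fc21g02 (0.90), ahr2 (0.90), CCN2 (0.89) and ccn2b (0.89). cyp1c2 and tiparp are textbook targets of the aryl hydrocarbon receptor, and ahr2 encodes the receptor itself. etv4 was most like ENSDARG00000102687 (0.87), CDH17 (0.80), ERRFI1 (0.79), FOXQ1 (0.79) and PIK3R3 (0.79). zic2 was most like HEPACAM (0.78), fthl29 (0.76), ASAH1 (0.76), stk11ip (0.74) and MYLIP (0.72), lower values than for the other 3. By Spearman's rho, 4 of the 5 genes stayed for foxf2a, zic2 and meox1 and 2 for etv4. Over the 80 single libraries, 2 of the 5 stayed for foxf2a and 1 for each of the others.

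Among themselves over the 20 groups, foxf2a and meox1 had an r of 0.79, foxf2a and etv4 0.77 and etv4 and meox1 0.65. zic2 had −0.43 with foxf2a, −0.49 with etv4 and −0.54 with meox1. Over the 80 libraries these fell to 0.42, 0.41 and 0.45 for the first set and to −0.28, −0.09 and −0.26 for zic2.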

How the data were processed

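Whole 5D zebrafish embryos (80 pools of 6) were sequenced as 3′ BRB-seq libraries, in which poly(A) ends carry a sample barcode. The authors deposited 1 table of raw read counts per gene, mapped and demultiplexed by the sequencing company; aligner, genome build and annotation are not given in the sources used here. Gene symbols matched 29201 of 32520 IDs. A 3′ count measures a transcript's end only, and levels of different genes were not ranked against each other.

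Genes with at least 5 counts in at least 2 libraries of a time entered an edgeR 4.0.16 quasi-likelihood fit (R 4.3.3) of the deposited counts, TMM scaled, with all 10 groups of the time. The 80 libraries entered 1 fit for the comparisons across time. p-values were Benjamini-Hochberg adjusted over all genes, with calls at 0.05 or under, and 95% intervals come from the SE and a normal distribution. CPM are counts scaled by the library total and by TMM factors over all 80 libraries. The fit was tested on simulated data. Correlations used log2 CPM computed with a prior count of 2.

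The 4 genes and all lists were chosen with earlier results of these data known. Lists were FGF ligands and receptors, FGF targets and feedback inhibitors, the Zic family, the forkhead cluster, hedgehog, somite and dermomyotome, sclerotome, mural cells and smooth muscle, dorsal neural tube, fin bud and fin fold, and whole embryo markers. Named were the 4 genes, called list genes (up to 4 per list and comparison, those of the controls over time left out), the 5 genes most like each, annotated neighbours, and cyp1a; relatives of the 4 that were not called were named after their values were seen. Values of some list genes are not reported here. No 2 of 120 library pairs within groups were identical.

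Alternatives were DESeq2 1.42.0, RLE size factors, no filter or filterByExpr, only the compared groups, a replicate block, leaving out each library, and a contrast with the mean of BaP and 6-MBaP.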

Additional observations from a re-analysis of the deposited data

Results flagged for a closer look

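2 of the 80 sets of 4 libraries (4 genes in 20 groups) held a library far from the rest, measured as its gap to the nearest library over the range of the set and set against Dixon's 95% critical value; chance puts about 1 in 20 sets past it. Both fell in the 72 hpf group with 13.3 µM 6-MBaP, in different libraries. foxf2a in library C was at 11.48 CPM, where the others held 4.98, 5.45 and 5.72 CPM (ratio 0.886). zic2 in library D was at 17.04 CPM, where the others held 24.68, 24.85 and 25.10 CPM (ratio 0.948).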

How the results depend on the processing

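The calls of foxf2a, zic2 and meox1 for 13.3 µM 8-MBaP against control at 48 hpf held under every alternative run. All of these alternatives drew on the 48 hpf control pools that helped to choose the genes, so they cannot test that dependence. The letters A to D do not pair libraries: correlations of same-letter deviations were −0.083 to 0.091 in 25 comparisons, and every library was closest to its own letter in 1 of them. A replicate block on the letters changed no call of the 4 genes (foxf2a against control at 48 hpf stayed at 1.32). Other calls moved. foxf2a for 8-MBaP against control at 72 hpf passed by DESeq2 (0.81), without a low-count filter (0.79) and with only the compared groups (0.80), and etv4 at 48 hpf by DESeq2 (0.52) and filterByExpr (0.51, adjusted p = 0.050). Against BaP at 48 hpf, foxf2a passed by DESeq2 (0.69) and without a filter (0.68), and zic2 by DESeq2 (−0.45). The meox1 difference between control times is given without a test, so it has no call here, and its size hardly changed. It was −0.40 in the edgeR fit, −0.39 with RLE size factors, −0.40 without a filter and −0.40 with only the compared groups. Against the mean of BaP and 6-MBaP, a contrast chosen after seeing the data, foxf2a passed at 72 hpf (0.81, adjusted p = 0.022) and meox1 at 48 hpf (0.49, adjusted p = 0.0085). That contrast called 0.871% of all genes at 48 hpf and 1.62% at 72 hpf. In it foxf2a (adjusted p = 0.072), zic2 (0.064) and etv4 (0.76) were not called at 48 hpf. Nor were zic2 (0.85), etv4 (0.63) and meox1 (0.65) at 72 hpf. foxf2a for 6-MBaP at 48 hpf missed with only the compared groups (adjusted p = 0.077), and DESeq2 gave it no adjusted p. The cause of the moved calls was not tested.

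Leaving out 1 library at a time, ranges were 0.78 to 1.28 for foxf2a against 6-MBaP at 72 hpf, 0.50 to 0.82 for foxf2a and 0.50 to 0.66 for meox1 against BaP at 48 hpf, 0.49 to 0.68 for meox1 against control at 72 hpf, and between control times −0.51 to −0.29 for meox1, −0.063 to 0.20 for foxf2a and −0.13 to 0.034 for etv4. This was not run for the change with time of BaP and 6-MBaP effects. Genes called for 8-MBaP against control at 48 hpf numbered 274, and 171 without 8-MBaP library C; against BaP they numbered 145 at 48 hpf (231 by DESeq2, 244 without a filter, 71 without BaP library B) and 150 at 72 hpf (230, 288 and 95), and against 6-MBaP at 48 hpf 130 (209 without a filter). Without a filter, BaP against control called 18, 85 and 153 genes at 48 hpf in order of concentration (2, 15 and 61 with it) and 17, 100 and 319 at 72 hpf (2, 24 and 149), 6-MBaP 34, 25 and 137 (0, 0 and 45) and 67, 19 and 80 (1, 1 and 7), 6-MBaP against BaP 49, 39 and 103 (3, 6 and 35) and 154, 100 and 106 (32, 10 and 21), and the changes with time 77, 67 and 24 for 8-MBaP, BaP and 6-MBaP (19, 2 and 0). DESeq2 called 57 and 92 for BaP at 1.33 and 13.3 µM and 14 and 140 for 6-MBaP at 0.133 and 13.3 µM (48 hpf), 50 for BaP at 1.33 µM and 28 and 13 for 6-MBaP at 0.133 and 13.3 µM (72 hpf), 23, 10 and 56 for 6-MBaP against BaP at 48 hpf and 85 and 96 at 0.133 and 1.33 µM at 72 hpf, and 40 for the 8-MBaP change with time. Fits of only the compared groups, RLE and filterByExpr moved counts of between 0 and 32 by over 1.5 times, to between 0 and 53. At 23 to 171 counts per library, foxf2a had the widest errors of the 4 genes.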
